A study of Homo sapiens with 8 samples.

Results

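The 10 human Toll-like receptor genes, TLR1 to TLR10, were taken by name from the 20098 protein-coding genes of GENCODE release 44 mapped to the genome build hg19. For each gene, the peaks of 2 histone marks were read over the gene with 10 kb on each side, here called its window, and within 1 kb of its transcription start site (TSS), the 5′ end of the annotated gene. HL-60, an established human promyelocytic leukemia cell line, was exposed for 4 days either to 1 µM all-trans retinoic acid (ATRA), which drives these cells towards granulocytes, or to ethanol, its solvent, as the control. Both groups are cultures of 1 line. Chromatin immunoprecipitation with antibodies to trimethylated lysine 4 of histone H3 (H3K4me3) or acetylated lysine 27 of histone H3 (H3K27ac) was followed by sequencing of 2 replicates per condition, giving 8 libraries. The deposited values are peak positions that the authors called in each library alone. No read counts are held, so the depth of each library is unknown and no interval from counts could be given.

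Toll-like receptors sense molecules of microbes and start inflammatory signaling. TLR1, TLR2, TLR4, TLR5, TLR6 and TLR10 sit at the cell surface, where TLR2 pairs with TLR1 or TLR6 to bind bacterial lipoproteins, TLR4 binds lipopolysaccharide and TLR5 binds flagellin. TLR3, TLR7, TLR8 and TLR9 reside in endosomes, where TLR3 binds double-stranded RNA, TLR7 and TLR8 bind single-stranded RNA and TLR9 binds DNA with unmethylated CG pairs. Granulocytes and monocytes rely on several of these receptors to detect infection. H3K4me3 marks the starts of genes that are active or poised, and H3K27ac marks active starts and enhancers.

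The bases just upstream of 5 of these genes are shown because the H3K4me3 peaks over them differed: TLR4 and TLR5 had a peak in every library, TLR3 in 3 libraries, TLR9 in the control libraries only, and TLR2 in none. Each sequence holds the 250 bases before the start of the gene in RefSeq (GRCh38.p14), written 5′ to 3′ on the strand of the gene and placed on hg19 by a single exact match. Capitals mark matches, on either strand, to the core motifs of ETS factors (GGAAGT), C/EBP factors (TTNNGNAA), interferon regulatory factors (AANNGAAA), AP-1 (TGANTCA), Sp1 (GGGCGG) and nuclear receptors (AGGTCA, the half-site that retinoic acid receptors share with others).
TLR4, chr9:120466431-120466680, + strand: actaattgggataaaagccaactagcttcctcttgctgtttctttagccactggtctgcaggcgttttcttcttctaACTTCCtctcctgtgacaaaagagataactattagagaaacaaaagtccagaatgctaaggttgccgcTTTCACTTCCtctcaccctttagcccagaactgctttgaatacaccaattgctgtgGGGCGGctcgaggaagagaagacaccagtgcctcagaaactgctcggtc
TLR9, chr3:52259662-52259911, - strand: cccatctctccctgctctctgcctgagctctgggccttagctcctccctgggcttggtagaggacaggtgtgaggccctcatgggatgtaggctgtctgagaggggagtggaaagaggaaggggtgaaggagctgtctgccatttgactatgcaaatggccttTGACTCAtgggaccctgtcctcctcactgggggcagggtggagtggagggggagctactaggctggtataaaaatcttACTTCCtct
TLR3, chr4:186990060-186990309, + strand: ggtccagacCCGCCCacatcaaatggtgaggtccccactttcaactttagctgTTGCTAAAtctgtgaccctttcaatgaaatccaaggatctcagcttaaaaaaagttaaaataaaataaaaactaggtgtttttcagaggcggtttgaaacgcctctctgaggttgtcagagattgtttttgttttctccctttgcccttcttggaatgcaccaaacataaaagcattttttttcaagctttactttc
TLR5, chr1:223316591-223316840, - strand: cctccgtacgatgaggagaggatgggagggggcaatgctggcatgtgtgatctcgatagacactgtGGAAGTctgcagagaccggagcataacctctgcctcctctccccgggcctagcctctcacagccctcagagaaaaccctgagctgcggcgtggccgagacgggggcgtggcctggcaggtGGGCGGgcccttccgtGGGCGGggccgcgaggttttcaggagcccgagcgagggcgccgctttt
TLR2, chr4:154605182-154605431, + strand: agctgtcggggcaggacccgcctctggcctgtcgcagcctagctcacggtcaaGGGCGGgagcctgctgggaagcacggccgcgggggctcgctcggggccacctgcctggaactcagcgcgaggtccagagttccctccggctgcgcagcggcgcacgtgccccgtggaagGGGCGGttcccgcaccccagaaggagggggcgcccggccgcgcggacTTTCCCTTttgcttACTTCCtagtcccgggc

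Of the 10 genes, 7 had an entry in the RefSeq table, and TLR1, TLR7 and TLR10 did not. The number of CG pairs in these 250 bases was 26 for TLR2, 19 for TLR5, 5 for TLR4, 4 each for TLR6 and TLR8, 3 for TLR3 and 0 for TLR9, beside a median of 11 over the 35116 promoters of the table. CG-rich starts often carry H3K4me3. TLR2 had more CG pairs than the median and no H3K4me3 peak at its start, whereas TLR9 had none and carried H3K4me3 in both control libraries. The ETS core was found in TLR2, TLR4, TLR5, TLR8 and TLR9, and in 19.5% of all promoters. The Sp1 box was found in TLR2, TLR3, TLR4 and TLR5 (42.6% of all promoters), the C/EBP core in TLR3, TLR6 and TLR8 (33.2%), the interferon regulatory factor core in TLR2 and TLR4 (20.3%) and the AP-1 site in TLR9 alone (6.6%). In TLR4, the match to the interferon regulatory factor core (bases -105 to -98 from the start) overlapped an ETS match (-101 to -96), so the 2 were written as 1 run of capitals. The nuclear receptor half-site had no match in the 7 sequences and occurred in 12.1% of promoters. These matches describe letters in a window and not bound sites. For TLR2, TLR3 and TLR4, the 5′ end of the GENCODE gene lay within the bases shown, since GENCODE also lists transcripts that start further upstream.

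The libraries differed in how much was called. H3K4me3 peaks numbered 16258 and 16487 in the ATRA replicates 1 and 2 and 16160 and 13241 in the control replicates, and covered 47.7 to 63.2 Mb. H3K27ac peaks numbered 28200, 39332, 15457 and 29616 in the same order and covered 64.8, 86.2, 28.8 and 54.0 Mb, so the 2 ATRA libraries covered more than both control libraries. The paper, which kept peaks found in both replicates, reports fewer peaks of both marks in ATRA-treated than in control cells. Here, each ATRA list held more peaks than the control list of the same mark and replicate number. The cause of this disagreement was not tested. A library with more called sequence gives longer coverage at most genes, and for this reason each length is also given per Mb under peaks in its library where that changes the order. In the windows of the 10 genes, the ATRA libraries had 12 and 9 distinct H3K4me3 peaks and the control libraries 8 and 5. For H3K27ac, these numbers were 12 and 20 against 7 and 14. The deposited −log10 q is the authors' adjusted significance of a peak, on a scale where higher is surer. It ran from 2.04 to 47.9 for these H3K4me3 peaks and from 0.322 to 8.69 for the H3K27ac peaks, so the latter scored lower. The H3K4me3 peak at the TLR6 start had 47.9 in control replicate 1 and 3.41 in control replicate 2. The fold and −log10 p columns held values outside their possible range, and whether the −log10 q column is sound was not checked. The identity of the cells was checked at the starts of marker genes: H3K4me3 lay at the start of 6 of 9 genes of the granulocyte lineage in every library (MPO, SPI1, CEBPA, CEBPE, CD33 and ITGAM), and at 0 of 9 genes of other lineages in every library. ELANE and AZU1 had none at their start, PRTN3 had it in the ATRA libraries only, and of the other lineages GATA1 had it in 3 libraries and COL1A1 in 2. H3K27ac lay at the start of 4 of the 9 lineage genes in every library, and, among the genes of other lineages, at that of CD3E and GATA1 in some libraries.

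Over the 10 genes together, H3K4me3 lay at the TSS in every library for 4 genes, in some libraries for 2 and in none for 4. Over all protein-coding genes, 50.7% had it in every library and 45.9% in none. H3K27ac lay at the TSS in every library for 2 genes and in none for 4, against 32.9% and 49.1% over all genes. TLR4 was the 1 receptor gene with both marks at its TSS in every library. With 2 libraries against 2, the smallest p of a two-sided exact permutation test is 0.33, so no difference here can pass such a test. Genes were instead counted where both ATRA libraries lay beyond both control libraries. For H3K4me3, 3 of 10 genes had more length under peaks in both ATRA libraries (TLR1, TLR3 and TLR4), where 28.0% of all genes did, and 1 had less (TLR9), where 2.64% did. For H3K27ac, 2 of 10 had more (TLR4 and TLR10), where 30.3% of all genes did, and 0 had less, where 2.86% did. The counts of genes with more of either mark were near the background. Per Mb under peaks, the H3K4me3 counts of TLR genes were 3 and 1 again, beside 11.0% of all genes higher and 16.9% lower. The H3K27ac counts became 1 (TLR10) and 1 (TLR4, now lower), beside 12.9% and 18.5%. This scaling moved the share of higher genes among all genes counted from 91.4% to 39.4% for H3K4me3 and from 91.4% to 41.0% for H3K27ac. In peaks from mixed cultures, fewer cells carrying a mark and less of the mark per cell cannot be told apart.

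**Figure D1:**
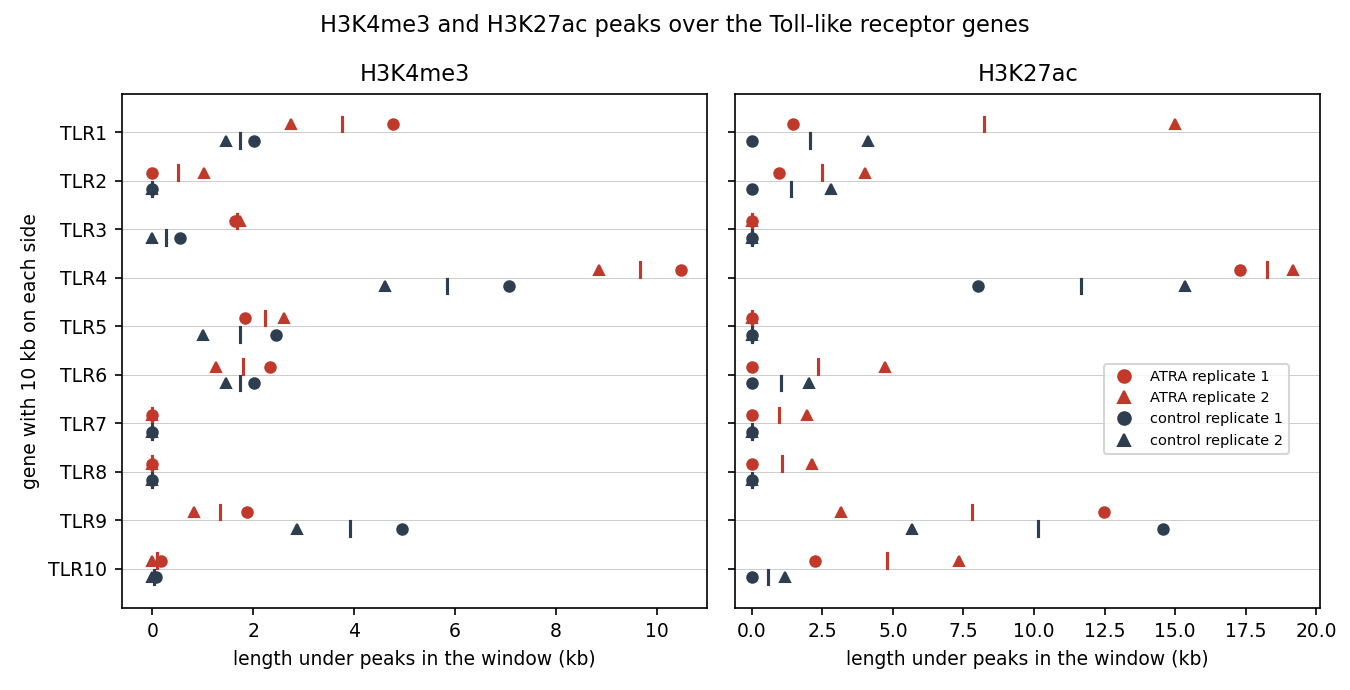
Length under H3K4me3 (left) and H3K27ac (right) peaks in the window of each Toll-like receptor gene, in kb, with 1 point per library (circle replicate 1, triangle replicate 2) and a vertical bar at the mean of each condition (red ATRA, dark control). The 2 ATRA libraries lie to the right of both control libraries for TLR1, TLR3 and TLR4 in H3K4me3 and for TLR4 and TLR10 in H3K27ac, and to the left for TLR9 in H3K4me3.

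Among the surface receptors, TLR4 (ENSG00000136869, chr9:120466453-120487013, + strand) had the longest H3K4me3 coverage of the 10 genes in every library and the longest H3K27ac coverage in 3 of 4 libraries, the other being control replicate 1, where TLR9 had more. In H3K4me3, its window held 10476 and 8846 bp under peaks in the ATRA replicates 1 and 2, and 7078 and 4609 bp in the control replicates. Both ATRA libraries lay above both control libraries, with a mean of 9661 ± 1153 bp against 5844 ± 1746 bp (SD, n = 2 each). The order was the same per Mb under peaks, at 165.9 and 142.0 bp per Mb against 118.3 and 96.5. The peak over the start was 7290 and 7148 bp long in the ATRA libraries and 5875 and 4609 bp in the control libraries. Its ends showed where the added length lay: in the ATRA libraries it reached 5094 and 4875 bp downstream of the start of the canonical transcript, past the second exon, and in the control libraries 3412 and 3359 bp. On the upstream side its edge lay at -2195 and -2272 bp from that start in the ATRA libraries and at -2462 and -1249 bp in the control libraries, which overlapped.

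A second H3K4me3 stretch in the last intron of TLR4, at chr9:120472981-120474582, was 514 and 1318 bp long in the ATRA libraries and was not called in either control library. It began 6300 bp downstream of the start. Its deposited −log10 q was 4.37 in ATRA replicate 1 and 26.8 in ATRA replicate 2. Shorter H3K4me3 peaks over the end of the gene were 326 to 1773 bp long and lay in both ATRA libraries and control replicate 1. The non-coding part of the last exon of TLR4 also carried long H3K27ac peaks. This downstream stretch, at chr9:120478421-120494106, ran from 11740 to 27425 bp after the start and covered 14204 and 13110 bp in the ATRA libraries and 6882 and 11979 bp in the control libraries. Of its 15686 bp, 8593 bp lay in the last exon, 0 bp of them coding, and the rest lay beyond the end of the gene. The H3K27ac peak at the start covered 2433 and 5428 bp in the ATRA libraries and 1121 and 3363 bp in the control libraries, so the groups overlapped there. In the whole window, H3K27ac covered 17299 and 19193 bp against 8003 and 15342 bp, above both control libraries in length but below both per Mb under peaks (266.8 and 222.8 against 277.9 and 284.4 bp per Mb). None of the H3K27ac peaks of TLR4 had a deposited −log10 q of 5 or more. The start of TLR4 is shared with an overlapping gene, ENSG00000285082, so peaks there cannot be assigned to one of them.

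**Figure D2:**
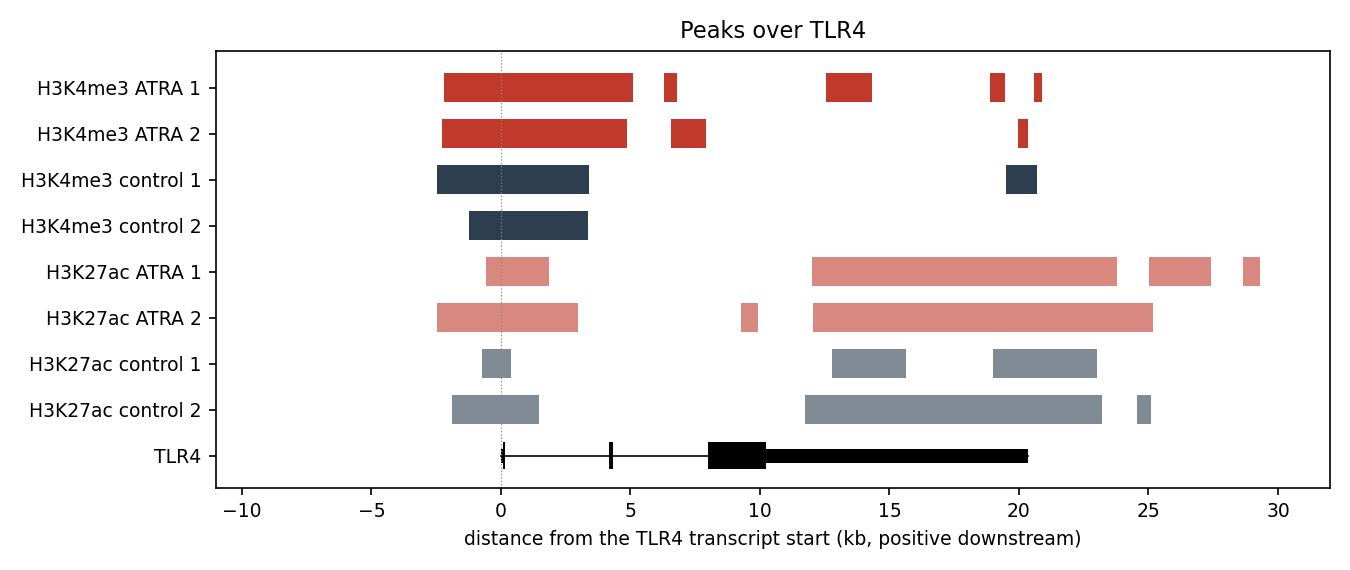
Peaks over TLR4 in the 8 libraries, by distance from the start of its canonical transcript in kb (red ATRA, dark control, paler for H3K27ac). The lowest track shows exons as boxes, taller where coding. The H3K4me3 peak at the start extends 5094 and 4875 bp downstream in the ATRA libraries and 3412 and 3359 bp in the control libraries, and the H3K27ac peaks from 11740 bp on lie over the last exon and beyond.

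TLR1, TLR6 and TLR10 lie side by side on chromosome 4 and are transcribed in the same direction, so their windows share peaks. TLR6 (ENSG00000174130, chr4:38824518-38858438, - strand) lies furthest upstream, followed by TLR1 and TLR10. The annotated gene of TLR1 (ENSG00000174125, chr4:38792298-38858438, - strand) reaches the start of TLR6 through 1 long transcript, whereas its canonical transcript starts at position 38806412. At that start, H3K4me3 peaks of 2443 and 1478 bp lay in the ATRA replicates 1 and 2, and no peak was called in either control library. The deposited −log10 q of these peaks was 12.1 and 9.17. A gain of H3K4me3 at the start of the canonical transcript, in both ATRA and no control library, was seen in 0.318% of all genes, and TLR1 was the 1 Toll-like receptor gene among them. This measure of the canonical start was added after the data had been seen. At the 5′ end of the annotated gene, used otherwise, 0 of 10 genes gained H3K4me3, where 0.269% of all genes did.

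Over the whole window of TLR1, H3K4me3 covered 4775 and 2748 bp in the ATRA libraries and 2024 and 1467 bp in the control libraries. The groups did not overlap (3762 ± 1433 bp against 1746 ± 394 bp, SD, n = 2 each), in length or per Mb under peaks. At the start of TLR6, which forms a heterodimer with TLR2, the H3K4me3 peak was 2332, 1270, 2024 and 1467 bp long in ATRA replicates 1 and 2 and control replicates 1 and 2. These values overlapped between the conditions, and the mean difference of 55.5 bp became -475.5 bp without ATRA replicate 1, -223.0 bp without control replicate 2 and -3.62 bp per Mb under peaks. H3K4me3 was thus longer in both ATRA libraries at the start of TLR1 and not at that of TLR6, although the difference between the 2 starts was not tested. TLR10 (ENSG00000174123, chr4:38773859-38784611, - strand), a receptor of uncertain ligand, had no H3K4me3 at its start. The H3K4me3 in its window, 173 bp in ATRA replicate 1 and 79 bp in control replicate 1, was the edge of a peak at the far end.

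H3K27ac over this cluster was called mainly in the second replicate of each condition. TLR1 had 1440 and 15000 bp in the ATRA libraries and 0 and 4103 bp in the control libraries, which overlapped. At the shared start of TLR6 and the long TLR1 transcript, and at the canonical start of TLR1, H3K27ac was called in ATRA replicate 2 and control replicate 2 and not in either replicate 1. TLR6 had 0 and 4722 bp against 0 and 2031 bp. TLR10 had 2253 and 7337 bp in the ATRA libraries and 0 and 1170 bp in the control libraries, above both control libraries in length and per Mb (34.8 and 85.2 against 0 and 21.7 bp per Mb). Most of this lay outside the gene: a stretch upstream, at chr4:38791885-38794649, was 1440 and 2765 bp long in the ATRA libraries and 0 and 645 bp in the control libraries, and belongs to the window of TLR1 as well. For TLR10, the groups overlapped with 0, 5 or 25 kb on each side in place of 10 kb and when peaks were counted. With 25 kb, the genes with more H3K27ac were TLR4 and TLR8.

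**Figure D3:**
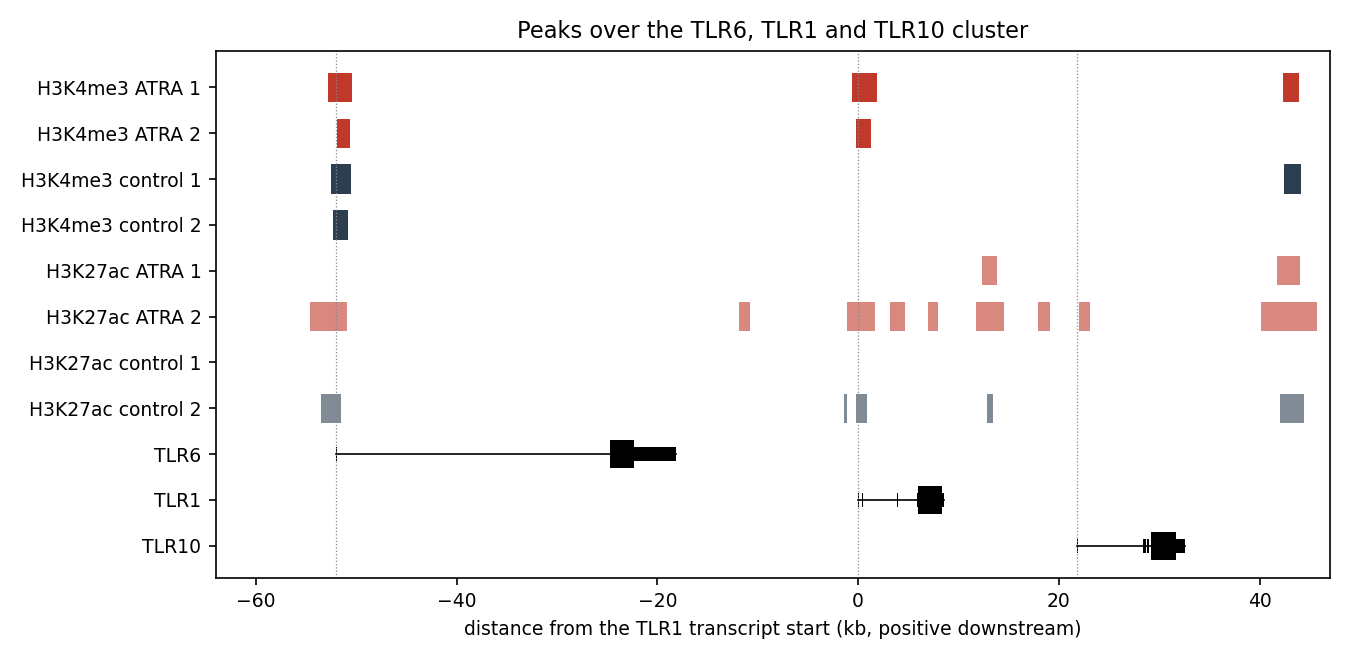
Peaks over TLR6, TLR1 and TLR10 in the 8 libraries, by distance in kb from the start of the canonical TLR1 transcript, positive in the direction of transcription (red ATRA, dark control, paler for H3K27ac). Exons are boxes, taller where coding, and dotted lines mark the 3 starts. H3K4me3 at the TLR1 start is called in the 2 ATRA libraries only, and H3K27ac at the TLR6 and TLR1 starts in the second replicate of each condition only.

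TLR2 (ENSG00000137462, chr4:154605222-154627412, + strand), the partner of TLR1 and TLR6, had neither mark at its start in any library. Its peaks lay at the other end of the gene. An H3K27ac stretch over the 3′ end, at chr4:154625873-154630166, covered 950 and 4007 bp in the ATRA libraries and 0 and 2588 bp in the control libraries. The groups overlapped. Over the whole window, replicate 2 had more in the ATRA library by length (4007 against 2798 bp) but less per Mb under peaks (46.5 against 51.9 bp per Mb). An H3K4me3 peak of 1020 bp at the same place was called in ATRA replicate 2 alone. TLR5 (ENSG00000187554, chr1:223282746-223316590, - strand) showed the reverse arrangement, with H3K4me3 at its start and no H3K27ac in its window in any library. Its H3K4me3 peak was 1847 and 2603 bp long in the ATRA libraries and 2446 and 1014 bp in the control libraries, which overlapped.

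Of the endosomal receptors, TLR9 (ENSG00000239732, chr3:52255096-52259661, - strand) was the 1 gene of the 10 that lost H3K4me3 at its TSS. Within 1 kb of the TSS, peaks covered 0 and 0 bp in the ATRA libraries and 2001 and 1072 bp in the control libraries. Such a loss, present in both control and no ATRA library, was seen in 0.0995% of all genes at the 5′ end of the gene and in 0.119% at the start of the canonical transcript. The peak of control replicate 1, at chr3:52257793-52261110, was 3318 bp long and had a −log10 q of 5.92. That of control replicate 2, at chr3:52258421-52259732, was 1312 bp long and had a −log10 q of 4.52, so the loss was not counted with a minimum of 5. With each library left out in turn, TLR9 still counted as a loss, but the definition allowed no other outcome. A start with a peak in every control library and in no ATRA library keeps that pattern with fewer libraries. Leaving out libraries therefore did not test the loss. In the whole window, H3K4me3 covered 1880 and 826 bp in the ATRA libraries and 4946 and 2874 bp in the control libraries (1353 ± 745 bp against 3910 ± 1465 bp, SD, n = 2 each). The remaining length in the ATRA libraries came mainly from a peak of 7354 to 9329 bp that lay upstream, towards TWF2, in every library, and with 25 kb on each side the difference in the window reversed.

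H3K27ac remained over the start of TLR9 in every library. The stretch over the gene, at chr3:52254970-52264914, covered 8146 and 2694 bp in the ATRA libraries and 9839 and 3976 bp in the control libraries. The groups overlapped, with both replicates 1 above both replicates 2, and in each replicate number the ATRA library had less than the control library. In the whole window, H3K27ac covered 12490 and 3142 bp against 14578 and 5677 bp, with the same order. The mean difference of -2311.5 bp was not stable in sign, since it became 2139 bp without control replicate 1, 2362 bp without ATRA replicate 2 and 1425 bp when peaks at the TSS of another gene were left out. A gain of H3K27ac at the TSS was seen in 0 of 10 genes, where 2.57% of all genes did so, and a loss in 0 of 10, where 0.269% did. TLR9 also overlaps the gene ENSG00000173366.

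TLR3 (ENSG00000164342, chr4:186990065-187009227, + strand) carried H3K4me3 at its start in 3 libraries, and no library had H3K27ac in its window. Its peak was 1644 and 1732 bp long in the ATRA libraries and 545 bp in control replicate 1, and was not called in control replicate 2. Both ATRA libraries lay above both control libraries, at 1688 ± 62.2 bp against 272.5 ± 385.4 bp (SD, n = 2 each), and also per Mb under peaks. Its −log10 q was 4.58 in ATRA replicate 1, 45.1 in ATRA replicate 2 and 7.31 in control replicate 1, so with a minimum of 5 the groups overlapped. Without control replicate 1, TLR3 counted as a gain of H3K4me3 at the TSS.

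**Figure D4:**
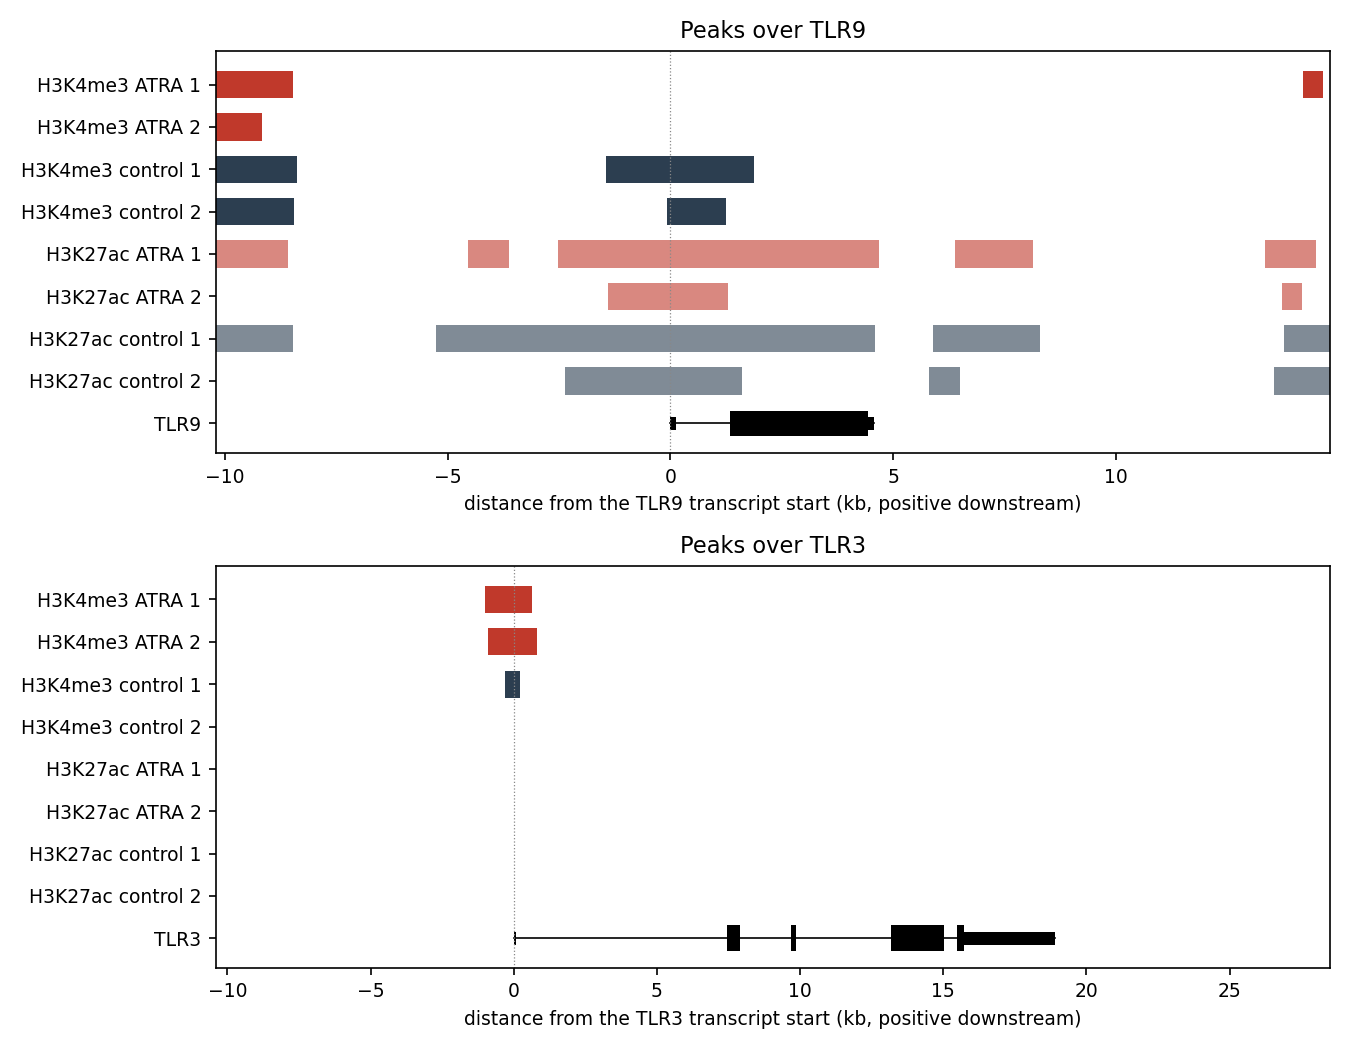
Peaks over TLR9 (top) and TLR3 (bottom) in the 8 libraries, by distance from the start of each canonical transcript in kb (red ATRA, dark control, paler for H3K27ac), with exons as boxes that are taller where coding. H3K4me3 at the start is called only in the 2 control libraries for TLR9, where H3K27ac is called in every library, and in the 2 ATRA libraries and control replicate 1 for TLR3, where no H3K27ac is called.

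TLR7 (ENSG00000196664, chrX:12885191-12908480, + strand) and TLR8 (ENSG00000101916, chrX:12924739-12941288, + strand), neighbors on chromosome X, had no H3K4me3 peak in any library. Their H3K27ac peaks were called in ATRA replicate 2 alone, the library with the most peaks. TLR8 had 2132 bp there, including a peak of 1092 bp over its start (chrX:12923979-12925070, −log10 q 4.73), and TLR7 had 1936 bp at and beyond its 3′ end. Every other library had 0 bp over both genes, so these peaks have no support from a second replicate.

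The study's methods kept peaks found in both replicates of a condition and asked which of them were specific to one condition. By that measure, an H3K4me3 peak specific to ATRA lay in the windows of 3 genes, TLR1, TLR3 and TLR4, where 9.92% of all genes had one. A control-specific H3K4me3 peak lay in the window of 1 gene, TLR9, where 2.06% of all genes had one. Without ATRA replicate 2 the first count was 5, and without control replicate 2 the second was 3. With a −log10 q of at least 5, ATRA-specific H3K4me3 peaks lay in the windows of TLR1 and TLR6, and no longer in those of TLR3 and TLR4. Where such a peak could overlap no peak of either control library, the genes were TLR1 and TLR4. ATRA-specific H3K27ac peaks lay in the windows of 4 genes (TLR1, TLR2, TLR4 and TLR10), where 29.0% of all genes had one, and a control-specific one in that of TLR9, where 6.99% had one. Of the H3K27ac counts, the first was 7 without ATRA replicate 1 and 0 without control replicate 1, while the second was 4 without control replicate 1 and 0 without ATRA replicate 2. The specific H3K4me3 peaks of TLR1, TLR3 and TLR9 lay over the start of the canonical transcript, and that of TLR4 in an intron. The specific H3K27ac peak of TLR2 lay over its 3′ end, that of TLR4 from 25007 bp after its start, and that of TLR9 from 5893 bp after its start, all away from the starts.

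Of 34 other genes of the pathway, 11 had more H3K4me3 length in both ATRA libraries and 3 had less, beside 28.0% and 2.64% of all genes, so the first count was near the background. For H3K27ac, 17 had more and 0 had less, beside 30.3% and 2.86%. However, 27.2% of all genes and 1 of the 34 had no H3K27ac peak in their window in any library and could not be counted. Among all genes with a peak of the mark in their window, 41.6% had more H3K27ac and 3.93% less. For H3K4me3, these shares were 40.8% and 3.85%. Per Mb under peaks, the counts of the 34 genes became 8 and 9 for H3K4me3 (11.0% and 16.9% of all genes) and 7 and 8 for H3K27ac (12.9% and 18.5%). The direction for the list as a whole thus depended on the scaling, and 5 genes were higher in both marks on both scales (CD36, MYD88, TRAF6, IKBKE and SIGIRR). The share of all genes higher in both marks on both scales was not computed, so this count has no background beside it. The median difference, ATRA minus control, was 639.2 bp for H3K4me3 and 1437 bp for H3K27ac over the 34 genes, 275.2 and 1073 bp over the 10 receptor genes, and 183.0 and 359.2 bp over all genes. These medians are not like for like. Genes with no peak in their window made up 31.4% and 27.2% of all genes, but 5.9% and 2.9% of the 34 and 20.0% of the 10 for each mark. Medians over genes with a peak, or per Mb, are not given. Peaks at the starts of neighboring genes were not left out of the windows of the 34 genes. Part of a length given for a pathway gene may therefore belong to another gene.

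Among the 7 co-receptors and transport proteins, CD36, a scavenger receptor that works with TLR2 and TLR6, had H3K4me3 over 3263 and 1670 bp in the ATRA libraries and 0 bp in both control libraries. Its H3K27ac covered 13082 and 44642 bp in the ATRA libraries and 909 and 4743 bp in the control libraries. CD14, which hands lipopolysaccharide to TLR4, had 4546 and 5189 bp of H3K27ac against 441 and 1167 bp, but slightly less H3K4me3, at 4757 and 4735 bp against 5390 and 5241 bp. LY96 encodes MD-2, the lipopolysaccharide-binding partner of TLR4, and its H3K4me3 covered 0 bp in both ATRA libraries and 892 and 460 bp in the control libraries. The LY96 peaks lay at its TSS, whereas CD14 and CD36 had neither mark within 1 kb of the TSS in any library, so the lengths in their windows lay elsewhere in the gene or its flanks. At the start of the canonical CD36 transcript, H3K4me3 was called in ATRA replicate 1 alone. The orders of CD36, CD14 and LY96 were the same per Mb. CNPY3, a chaperone of several receptors, had 9541 and 7656 bp of H3K4me3 against 7318 and 4710 bp, higher on both scales. Its H3K27ac, at 11890 and 10594 bp against 4336 and 5140 bp, was higher in length but overlapped per Mb (183.4 and 123.0 against 150.6 and 95.3 bp per Mb). UNC93B1, which carries receptors to endosomes, was higher in H3K27ac length and lower per Mb, at 177.4 and 130.0 against 301.1 and 205.0 bp per Mb.

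Of 5 adaptors, MYD88 and TIRAP were higher in both marks by length, beside 28.0% of all genes for H3K4me3 and 30.3% for H3K27ac. Per Mb, both were higher in H3K4me3, beside 11.0% of all genes. In H3K27ac per Mb, MYD88 was higher, beside 12.9% of all genes, and TIRAP overlapped. MYD88, used by all Toll-like receptors but TLR3, had H3K4me3 over 10791 and 10114 bp in the ATRA libraries and 7431 and 4707 bp in the control libraries. Its H3K27ac covered 5488 and 8673 bp against 1023 and 3776 bp. TIRAP, which bridges MYD88 to TLR2 and TLR4, had H3K4me3 over 9669 and 11292 bp against 9009 and 7160 bp. TICAM1, the adaptor of TLR3, overlapped between the conditions in both marks.

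Of 13 kinases and ubiquitin ligases, 6 were higher in H3K4me3 by length, beside 28.0% of all genes, and 4 in H3K27ac, near the 30.3% of all genes. By length, 0 were lower in either mark, beside 2.64% and 2.86% of all genes. Per Mb, 3 were higher in H3K4me3 (TRAF6, TAB1 and IKBKE) and 3 were lower, beside 11.0% and 16.9% of all genes. In H3K27ac per Mb, 2 were higher (TRAF6 and IKBKE) and 6 lower, beside 12.9% and 18.5%. With groups this small, the counts were not tested against these shares. IKBKE, a kinase that phosphorylates interferon regulatory factors, had 23783 and 20881 bp of H3K27ac in the ATRA libraries and 2645 and 3364 bp in the control libraries. CHUK, a kinase of the NF-κB pathway, had 17448 and 17524 bp of H3K4me3 against 15140 and 14238 bp, which overlapped per Mb. Of 5 transcription factors, RELA, IRF3, IRF5 and IRF7 were higher in H3K27ac by length, beside 30.3% of all genes. Only IRF7, a factor of interferon induction, was higher per Mb, beside 12.9%. In H3K4me3 0 of the 5 factors lay apart by length, and RELA and IRF3 were lower per Mb, beside 16.9% of all genes. Of 4 brakes on the pathway, SIGIRR, a receptor that inhibits Toll-like receptor signaling, was higher in both marks on both scales, with 10823 and 2904 bp of H3K27ac against 915 and 1753 bp. Per Mb, the nearest libraries of SIGIRR barely differed. Its H3K27ac was 166.9 and 33.7 against 31.8 and 32.5 bp per Mb, and its H3K4me3 98.4 and 96.0 against 94.5 and 48.8. IRAK3, which blocks signaling downstream of MYD88, had less H3K4me3 in both ATRA libraries, with 9951 and 10163 bp against 13135 and 10254 bp, and also per Mb.

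**Figure D5:**
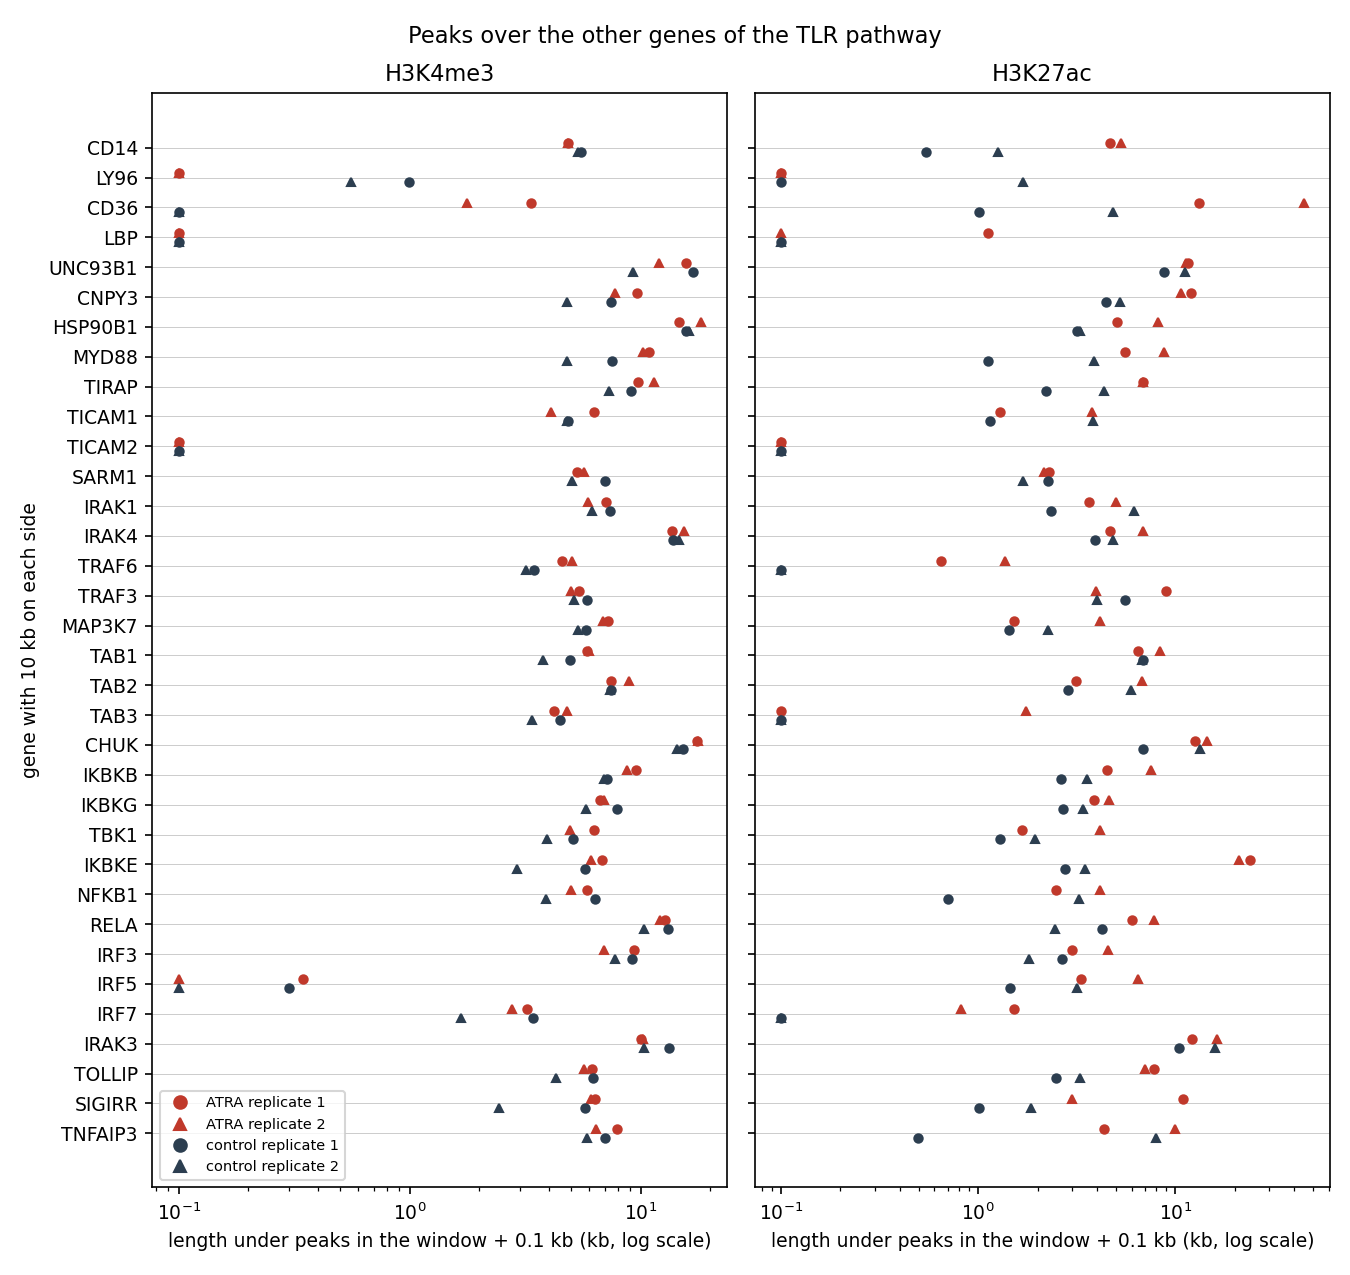
Length under H3K4me3 (left) and H3K27ac (right) peaks in the windows of the 34 other pathway genes, in kb plus 0.1 kb on a log scale, with 1 point per library (red ATRA, dark control, circle replicate 1, triangle replicate 2). Genes with no peak in a library sit at 0.1 kb, and in H3K27ac both ATRA libraries of CD36, IKBKE, TRAF6 and IRF7 lie above both control libraries.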

How the data were processed

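Per the labels and the methods of the study, cells were crosslinked, chromatin was sonicated and each mark was pulled down, with 2 replicates of ATRA-treated and 2 of control cells per mark. The submitters' processing notes name cutadapt, Bowtie, MACS2 and the build hg19 (GRCh37), with versions not given in the sources used here. The authors deposited a broad peak list for each library, with positions, a score and a −log10 q. The −log10 q served here as a stricter filter at 5 and to describe single peaks. Values outside the range possible for a fold or a −log10 p stand in those 2 columns, which were left out. Nothing says that replicates were separate cultures, so their spread may be technical. Longer or more peaks can come from deeper sequencing, which these lists do not show.

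For each of the 20098 protein-coding genes of GENCODE release 44 on GRCh37, the length under peaks in the gene with 10 kb on each side, and any overlap of at least 1 bp with the TSS ± 1 kb, were computed in each library with Python 3.11.15 and numpy 2.4.6, and drawn with matplotlib 3.10.9. Lengths were compared by an exact permutation test of 2 against 2 libraries and by whether the conditions overlapped. Specific peaks were replicate 1 peaks overlapping a replicate 2 peak of their condition by at least 1 bp and no such peak of the other condition. The canonical transcript and its start are those GENCODE tags. Of the genes, 279 had no such tag and kept the gene's own start. The scripts were tested on simulated peak lists. The receptor genes, the pathway list and the markers were chosen with earlier results of these data known. Named were all 10 receptors, up to 5 pathway genes per mark and direction with the largest mean difference among those that did not overlap, and the markers, and pathway genes shown for their order per Mb or for a group's count were added after their values were seen. The H3K27ac result of 1 marker gene is not reported here. Alternatives were other flanks and TSS widths, overlap minimum, peak strength, equal peak numbers, scaling per Mb, peak numbers, replicate pairing and leaving out each library, and, added after the data were seen, the canonical transcript.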

Additional observations from a re-analysis of the deposited data

How the results depend on the processing

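Of 192 counts of genes under other settings, 132 stayed within 1.5 times the reported value. Some of these were fixed by definition, such as the loss at the TSS of TLR9 with a library left out. The 132 therefore do not measure stability. Of 280 differences of single receptor genes, some could not change sign. TLR7 and TLR8 in H3K4me3 and TLR3 and TLR5 in H3K27ac were 0 in every setting. Pairing the replicates by number left each mean difference as it was. Of the 280, 265 kept their sign or had 0 as a value, and 15 changed sign. In 2 of these the conditions had not overlapped: TLR9 in H3K4me3 with 25 kb on each side (1588.5 bp) and TLR4 in H3K27ac per Mb under peaks (-36.33 bp per Mb). The other 13 were of genes whose conditions overlapped: TLR5, TLR6 and TLR10 in H3K4me3 and TLR1, TLR2, TLR6 and TLR9 in H3K27ac. Without ATRA replicate 2, the H3K27ac differences were -611.5 bp for TLR1, -449.0 bp for TLR2 and -1015.5 bp for TLR6. Without control replicate 2, the H3K4me3 difference of TLR5 was -221.0 bp. The cause was not tested, except that the windows differ by construction. Replicates share a number and a tag in the peak names. Over 20098 genes, the deviations of libraries with the same number had a Pearson r of 0.232 for H3K4me3 and 0.522 for H3K27ac, but with 2 pairs and no label of a shared culture they were not treated as pairs.

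With a replicate block, 5 pathway genes had less H3K4me3, 4 receptor genes had more H3K27ac (TLR1, TLR2, TLR4 and TLR10) and 1 had less (TLR9), 26 pathway genes had more H3K27ac, and 0 receptor genes had a control-specific H3K27ac peak. With a −log10 q of at least 5, 0 receptor genes had less H3K4me3, a loss at the TSS or a control-specific H3K4me3 peak, 0 had more H3K27ac or a specific H3K27ac peak of either condition, and 2 pathway genes had more H3K27ac and 1 less. Per Mb under peaks, 9 pathway genes had less H3K4me3, 7 had more H3K27ac and 8 less, and 1 receptor gene each had more and less H3K27ac. Counting peaks, 0 receptor genes had less H3K4me3 and 0 more H3K27ac, 4 pathway genes had more H3K4me3, 1 less, and 4 more H3K27ac. With 25 kb on each side, 0 receptor genes had less H3K4me3, 5 had an ATRA-specific H3K4me3 peak, and 1 pathway gene had less H3K4me3 and 1 less H3K27ac. With 5 kb, 0 receptor genes had more H3K27ac. With no flank, 1 had more, 2 had an ATRA-specific and 0 a control-specific H3K27ac peak. With equal numbers of the longest peaks, 1 receptor gene gained H3K4me3 at the TSS (TLR3) and 1 pathway gene had less H3K27ac. At the start of the canonical transcript, a setting added after seeing the data, 1 gained H3K4me3 (TLR1). Where a specific peak could overlap no peak of any library of the other condition, 0 receptor genes had an H3K27ac peak of either condition.

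Leaving out each library in turn, receptor genes with more H3K4me3 numbered 3 to 5 and with less 1 to 2, those that gained it at the TSS 0 to 1, and those with an ATRA-specific or control-specific H3K4me3 peak 2 to 5 and 1 to 3. Those with more H3K27ac numbered 2 to 7 and with less 0 to 1, with a gain at the TSS 0 to 2, and with an ATRA-specific or control-specific H3K27ac peak 0 to 7 and 0 to 4. Pathway genes with more H3K4me3 numbered 11 to 22, with less 3 to 12, with more H3K27ac 18 to 27 and with less 0 to 3. Both counts of 7 were without ATRA replicate 1, and the count of 4 was without control replicate 1. The counts of more, less and gains at the TSS could not fall here. A gene counted with every library stays counted with fewer, so the lower ends of these ranges show no stability. Shares of all genes with a library left out are not given. The precision rests on 2 libraries per condition, and the depth behind a missing peak is unknown.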
